A study of Mus musculus with 12 samples.

Results

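The transcripts described here are 9 genes of B cells and of plasma cells, the antibody-secreting cells that B cells become: Cd79a, Cd79b, Ms4a1, Cd22, Jchain, Mzb1, Prdm1, Pou2af1 and Cd38. They were taken by symbol from a table of 36528 mouse gene IDs, and all 9 had an ID and counts in every library. RNA had been sequenced from the whole liver of 12 mice. Of these, 6 mice received carbon tetrachloride (CCl4) and 6 received the corn oil vehicle, injected into the peritoneum 3 times in each of 6 weeks. CCl4 is a solvent that hepatocytes convert into a toxic radical, and repeated dosing scars the liver. The labels give no strain, sex or age, and they do not say whether animals were treated in separate batches. The comparison asks how these lymphocyte transcripts differ between chronically injured and vehicle-injected liver.

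B cells recognise antigen through a membrane-bound immunoglobulin. That molecule has almost no cytoplasmic part, and it signals through the attached heterodimer of CD79A and CD79B. On activation some B cells become plasma cells. The transcription factor BLIMP1, the product of Prdm1, then shuts down the B cell programme, and secretory genes such as Jchain and Mzb1 come up. B cells and plasma cells make up a minor part of the liver, and antibodies of the IgA class reach bile through the polymeric immunoglobulin receptor.

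All 9 genes had a higher mean after CCl4, and 7 of the 9 rose past an adjusted p of 0.05 in edgeR's quasi-likelihood test: Cd79a, Cd79b, Cd22, Jchain, Mzb1, Prdm1 and Cd38. No member fell, and Ms4a1 and Pou2af1 did not pass. Of all 16032 tested genes 20.6% rose by the same rule, and 39% changed in either direction. The median log2 fold change of the 9 genes was 1.12, against 0.01 for all tested genes. For 6 of the 9 genes every CCl4 liver lay above every oil liver, which held for 12% of all tested genes; 20% had groups apart in either direction. In whole liver, more cells of a type and more RNA per cell cannot be told apart.

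Levels were low. Values below are CPM, counts per 1000000 after TMM scaling, and libraries held 43027778 to 70375852 counts. Apart from Cd38, the members had between 4 and 107 counts in an oil library and between 25 and 523 in a CCl4 library. CCl4 replicate 1 stood apart by its muscle markers, which summed to 182 CPM against 0.0148 to 30.8 CPM in the other CCl4 livers. CCl4 replicate 5 had the highest pancreas markers, 141 CPM, against 10.3 to 55.1 CPM in the other CCl4 livers. The same number of members, 7, passed without either library.

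**Figure D1:**
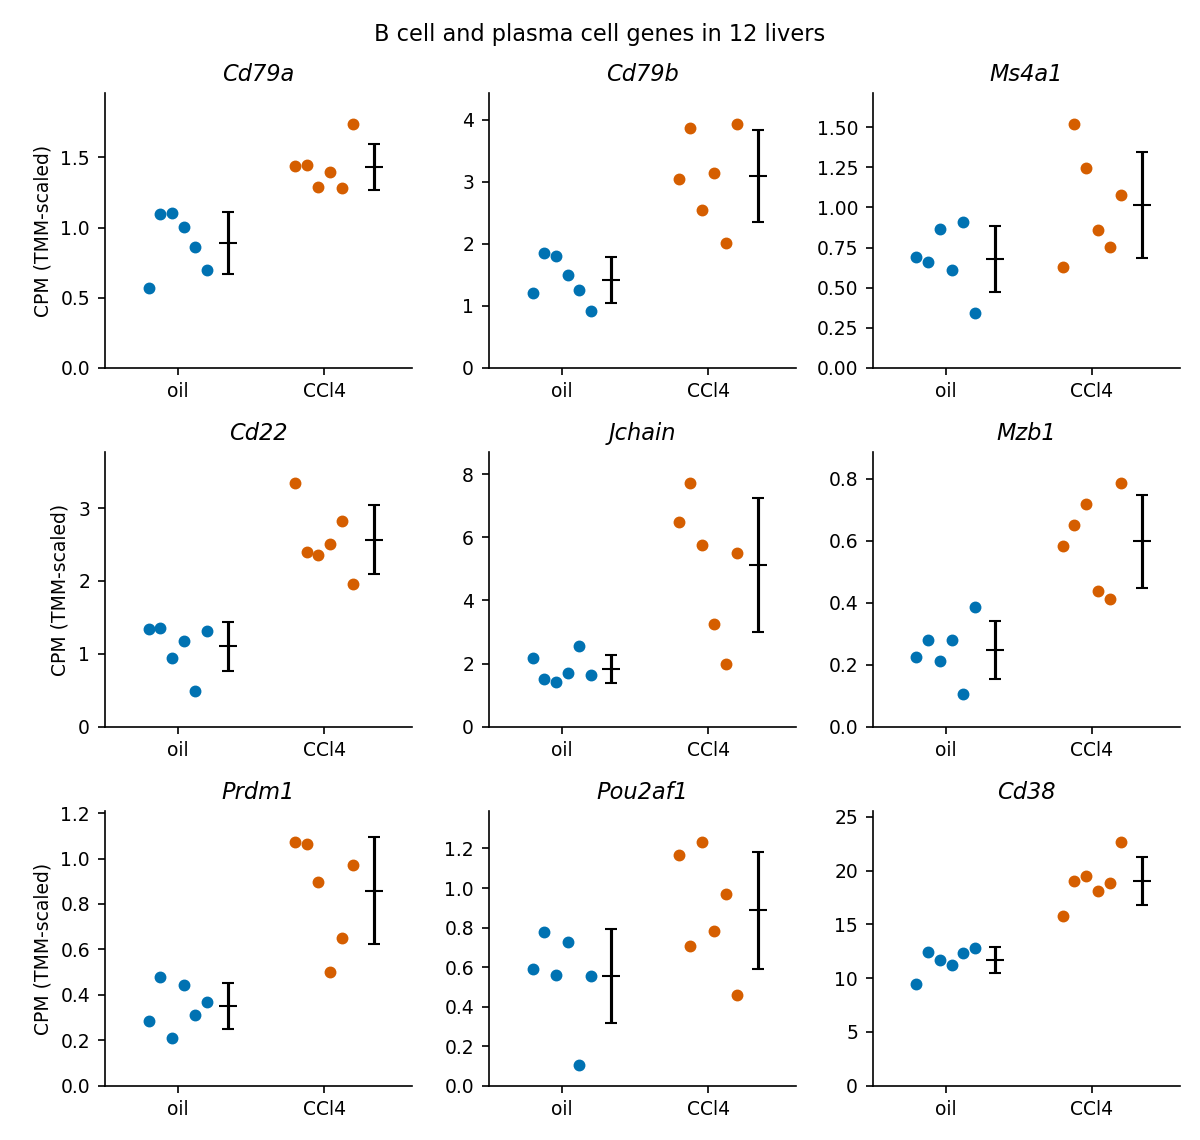
Normalised level (CPM, linear axis from 0) of each gene in each liver, with oil in blue and CCl4 in orange; black marks give the mean ± SD of 6 livers. The groups are separate for 6 genes and overlap for Ms4a1, Jchain and Pou2af1.

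The antigen receptor's signalling pair rose. Cd79a (gene ID 12518, chromosome 7, 24897497 to 24901858, GRCm38, plus strand) encodes the Ig-alpha chain. Its level ran from 0.571 to 1.10 CPM in oil (median 0.932) and from 1.29 to 1.74 CPM in CCl4 (median 1.42). The groups did not overlap, and the CCl4 livers lay close together with replicate 6 on top. The mean went from 0.888 ± 0.220 to 1.43 ± 0.165 CPM (SD, n = 6 each), a 1.61-fold rise (log2 fold change 0.69 ± 0.19 SE, adjusted p = 0.0124).

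Cd79b (gene ID 15985, chromosome 11, 106311341 to 106314562, minus strand) encodes the Ig-beta chain. It ran from 0.911 to 1.86 CPM in oil (median 1.37) and from 2.01 to 3.94 CPM in CCl4 (median 3.10), again with no overlap. The rise was 2.18-fold (log2 fold change 1.12 ± 0.22 SE, adjusted p = 0.00107). The log2 ratio of Cd79b to Cd79a in a liver averaged 0.65 ± 0.23 in oil and 1.06 ± 0.25 in CCl4. The difference of 0.41 had an exact two-sided permutation p of 0.0195, and 0.156 after adjustment over the 8 ratios to Cd79a, so a difference in rise between the partners was not shown.

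Cd22 (gene ID 12483, chromosome 7, 30865404 to 30880342, minus strand) encodes a sialic acid-binding inhibitory co-receptor of the antigen receptor. Its level ran from 0.494 to 1.36 CPM in oil (median 1.24) and from 1.96 to 3.35 CPM in CCl4 (median 2.45). Every CCl4 liver was above every oil liver, with the lowest oil value in replicate 5 and the highest CCl4 value in replicate 1. The rise was 2.31-fold (log2 fold change 1.21 ± 0.23 SE, adjusted p = 0.000898). An antisense gene model, Gm29439, shares 479 exonic bases with Cd22, and the use of strand in counting is not given in the sources used here.

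Ms4a1 (gene ID 12482, chromosome 19, 11249679 to 11266149, minus strand) encodes CD20, a surface protein that plasma cells lose. It was at 0.340 to 0.910 CPM in oil (median 0.676) and at 0.631 to 1.52 CPM in CCl4 (median 0.971). The groups overlapped: 3 CCl4 livers lay above all oil livers, and the other 3 lay within the oil range. The log2 fold change was 0.59 ± 0.28 SE and did not pass (adjusted p = 0.102). It passed with limma-voom (0.72, adjusted p = 0.0276), and it was 0.27 when the fit also held each library's slope of level on transcript length (adjusted p = 0.458).

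Pou2af1 (gene ID 18985, chromosome 9, 51213690 to 51240079, plus strand) encodes OCA-B, a coactivator that joins octamer-binding factors on B cell promoters. It was at 0.104 to 0.778 CPM in oil (median 0.577) and at 0.458 to 1.23 CPM in CCl4 (median 0.876). Oil replicate 5 was far below the other oil livers with 4 counts, and CCl4 replicate 6 lay below the oil median. The log2 fold change was 0.67 ± 0.35 SE and did not pass (adjusted p = 0.143). It was 1.15 and passed (adjusted p = 0.0107) when the fit held that slope, and without oil replicate 5 it was 0.47 (adjusted p = 0.158).

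The stretches upstream of the start sites are shown for 4 genes in which motifs of B-lineage factors occur. That of Cd38, which also held a motif, is not shown. RefSeq promoters for GRCm38.p6 were used for 6 of the 9 genes. The 250 bases before the start were searched on both strands for 5 motifs. These were the octamer ATTTGCAT, the part TGCAAAT of its reverse complement, the E box CAGGTG, the ETS core GGAAGT and the palindromic motif of the B cell factor EBF1. The octamer contains the reverse complement of TGCAAAT. The stretches are chr7:24897247-24897496 (plus strand), chr7:30879029-30879278 (minus strand), chr10:44458749-44458998 (minus strand) and chr9:51213440-51213689 (plus strand). The Cd22 and Prdm1 stretches lie before start sites inside the gene spans given for these genes, which come from RefSeq. Capitals mark the matches, each line reads 5′ to 3′ along the gene, and the last base stands just before the start site.
Cd79a: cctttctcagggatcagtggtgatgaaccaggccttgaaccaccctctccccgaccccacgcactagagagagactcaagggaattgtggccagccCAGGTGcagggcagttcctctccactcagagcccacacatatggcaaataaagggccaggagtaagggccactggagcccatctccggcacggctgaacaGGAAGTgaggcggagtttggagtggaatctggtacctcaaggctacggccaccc
Cd22: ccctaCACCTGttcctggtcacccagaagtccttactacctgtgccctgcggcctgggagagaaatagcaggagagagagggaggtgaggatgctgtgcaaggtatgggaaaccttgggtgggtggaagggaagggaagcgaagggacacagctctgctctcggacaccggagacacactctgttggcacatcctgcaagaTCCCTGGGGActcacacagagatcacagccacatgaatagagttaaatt
Prdm1: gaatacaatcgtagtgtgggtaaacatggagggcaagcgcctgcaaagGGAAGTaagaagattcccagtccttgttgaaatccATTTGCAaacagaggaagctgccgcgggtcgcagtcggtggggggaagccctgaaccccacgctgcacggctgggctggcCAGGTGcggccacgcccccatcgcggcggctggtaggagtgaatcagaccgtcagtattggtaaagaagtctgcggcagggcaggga
Pou2af1: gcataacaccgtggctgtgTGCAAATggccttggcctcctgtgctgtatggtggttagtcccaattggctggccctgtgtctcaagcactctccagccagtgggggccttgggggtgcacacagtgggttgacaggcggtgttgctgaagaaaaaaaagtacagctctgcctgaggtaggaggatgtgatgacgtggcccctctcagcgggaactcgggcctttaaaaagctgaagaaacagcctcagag

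None of the 6 promoters searched held the whole octamer, which 1.601% of 32851 promoter windows of the same length held. Promoters of Cd79b, Ms4a1 and Mzb1 were not searched, so their motifs are unknown here. The octamer part TGCAAAT was found upstream of Pou2af1 at positions -231 to -225 and, on the other strand, upstream of Prdm1 at -167 to -161. It was found in 3.56% of all windows. The E box was found in Cd79a, Cd22 and Prdm1 (17.2% of all windows) and the ETS core in Cd79a, Prdm1 and Cd38 (19.7%). The EBF1 motif was found in Cd22 at -49 to -40 (0.779% of all windows). Jchain had none of the 5 motifs in its window. A match only describes these letters and shows no binding.

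Among genes of antibody secretion, Jchain (gene ID 16069, chromosome 5, 88519809 to 88527897, minus strand) had the largest fold change of the 9. It encodes the joining chain that links IgA dimers and IgM pentamers. Its level ran from 1.43 to 2.55 CPM in oil (median 1.68) and from 1.97 to 7.73 CPM in CCl4 (median 5.63). The CCl4 livers were spread widely: replicate 5 lay within the oil range, replicate 4 was at 3.26 CPM, and the other 4 were at 5.51 CPM or more. The mean went from 1.83 ± 0.435 to 5.12 ± 2.13 CPM (SD, n = 6 each), a 2.80-fold rise (log2 fold change 1.48 ± 0.29 SE, adjusted p = 0.00117).

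Mzb1 (gene ID 69816, chromosome 18, 35647265 to 35650266, minus strand) encodes a chaperone of the endoplasmic reticulum that helps assemble immunoglobulin. It was at 0.104 to 0.386 CPM in oil (median 0.252) and at 0.411 to 0.787 CPM in CCl4 (median 0.617). No group overlap was seen, although the lowest CCl4 liver lay just above the highest oil liver. The rise was 2.36-fold (log2 fold change 1.24 ± 0.29 SE, adjusted p = 0.00380), on 4 to 25 counts per oil library and 28 to 60 per CCl4 library. A gene model listed as SPATA24 shares 695 exonic bases with Mzb1 on the same strand.

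Prdm1 (gene ID 12142, chromosome 10, 44437174 to 44528558, minus strand) encodes BLIMP1, which T cells and macrophages can also express. It ran from 0.211 to 0.479 CPM in oil (median 0.341) and from 0.502 to 1.07 CPM in CCl4 (median 0.934), with no overlap. The rise was 2.43-fold (log2 fold change 1.28 ± 0.26 SE, adjusted p = 0.00159). The lowest CCl4 livers for Prdm1, replicates 4 and 5, were also the lowest for Jchain and Mzb1.

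Cd38 (gene ID 12494, chromosome 5, 43868809 to 43912374, plus strand) encodes an enzyme that consumes NAD and makes cyclic ADP-ribose, and many cell types besides B cells carry it. It was at 9.46 to 12.8 CPM in oil (median 12.02) and at 15.8 to 22.7 CPM in CCl4 (median 19.0). The groups did not overlap, and Cd38 had the lowest spread between oil livers of the 9 genes (coefficient of variation 10.4%). The rise was 1.63-fold (log2 fold change 0.70 ± 0.12 SE, adjusted p = 0.000376). Among other immune cells, the 5 monocyte and macrophage markers summed to 79.97 to 142 CPM in oil and 198 to 452 CPM in CCl4. All 5 rose, where 20.6% of all tested genes rose. T cell markers summed to 3.15 to 5.89 CPM in oil and 2.86 to 5.35 CPM in CCl4. That sum held opposite changes: Cd4 fell from 1.86 ± 0.898 to 0.492 ± 0.157 CPM, while Cd8a and Cd8b1 rose. NK cell markers summed to 2.22 to 3.72 CPM in oil and 1.91 to 3.83 CPM in CCl4. The part of these cells in the Cd38 result was not tested.

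Per kilobase of exon, the 9 genes kept nearly the same order of levels in both groups. In oil the mean CPM per kb was 3.00 for Cd38, 0.992 for Cd79b, 0.728 for Jchain and 0.610 for Cd79a. It was 0.219 for Cd22, 0.217 for Pou2af1, 0.204 for Mzb1, 0.110 for Ms4a1 and 0.0628 for Prdm1. In CCl4 it was 4.88 for Cd38, 2.16 for Cd79b, 2.03 for Jchain and 0.983 for Cd79a. There it was 0.509 for Cd22, 0.492 for Mzb1, 0.348 for Pou2af1, 0.164 for Ms4a1 and 0.154 for Prdm1. In both groups the ranges over livers left a gap in 2 places, between Cd38 and Cd79b and between Cd79a and Cd22. All other neighbours in the order overlapped. Lengths were the merged exons of all annotated transcripts, which can overstate the length of the form expressed.

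The members' rises were then set against that of Cd79a within each liver, which removes library scaling. It does not remove a library's slope of level on transcript length. With that slope in the fit, the log2 fold change went from 0.69 to 0.56 for Cd79a and from 1.21 to 1.51 for Cd22. For Ms4a1 it went from 0.59 to 0.27. The ratios were not tested with the slope removed. None of the 8 log2 ratios differed between groups after adjustment in the exact two-sided permutation test, and 1, that of Cd79b, had an unadjusted p under 0.05. The smallest p this design can give is 0.00216. The Jchain ratio had the largest difference, 0.66, from 1.02 ± 0.61 in oil to 1.69 ± 0.68 in CCl4 (adjusted p = 0.222), with 3 CCl4 livers above the highest oil liver. The Prdm1 ratio differed by 0.51 (adjusted p = 0.222) and the Ms4a1 ratio by -0.14 (adjusted p = 0.791). A larger rise of plasma cell genes than of Cd79a was thus not detectable with 6 livers a group.

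**Figure D2:**
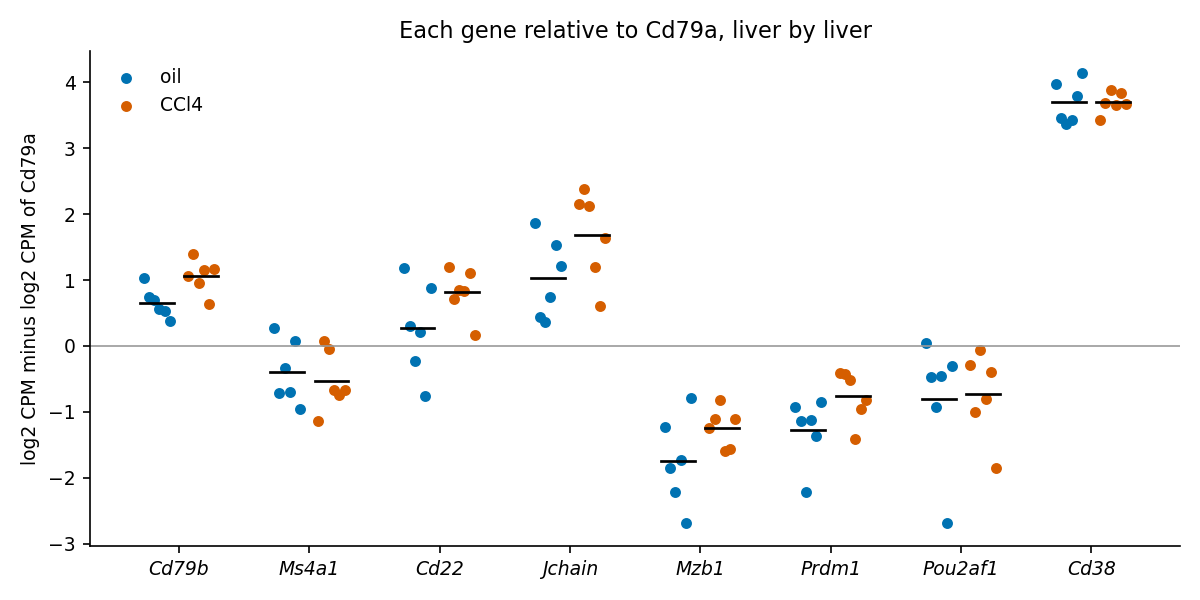
Log2 CPM of each gene minus log2 CPM of Cd79a in the same liver (vertical axis, log2 units), with oil in blue and CCl4 in orange and the group mean as a black line. The groups overlap for every gene.

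Within groups most pairs of the genes had low correlations. Group means were subtracted from log2 CPM, and Pearson's r was taken over the 12 livers for all 36 pairs. The median r was 0.16, and 22 of the 36 pairs were above 0. By permutation within groups 0 pairs passed an adjusted p of 0.05 for r, 2 had an unadjusted p under 0.05, and 1 passed for Spearman's rho. That pair was Cd79a and Cd79b: r was 0.76 (permutation p = 0.00427, adjusted p = 0.0841) and rho 0.91 (permutation p = 0.000200, adjusted p = 0.00720). Without the 2 livers farthest from the median their r was 0.87. Cd22 and Pou2af1 had an r of 0.90 (permutation p = 0.00467, adjusted p = 0.0841) and a rho of 0.62 (permutation p = 0.0367, adjusted p = 0.441). Without the 2 farthest livers their r was 0.45, and without oil replicate 5, the lowest for both genes, it was 0.62, so the relation rests on few livers. Ms4a1 and Cd22, both B cell surface genes, had the lowest r, -0.61. All values of a library share its depth, scaling and slope of level on transcript length. That slope was not removed here. It was lowest in CCl4 replicate 6 (-0.309) and oil replicate 5 (-0.118), where Cd22 and Pou2af1 were lowest of their groups. The highest slopes were in CCl4 replicate 5 (0.131) and oil replicate 6 (0.211). Cd79b was lowest of its group in both, and Cd79a only in the former. The part of the slope in these correlations was not tested.

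**Figure D3:**
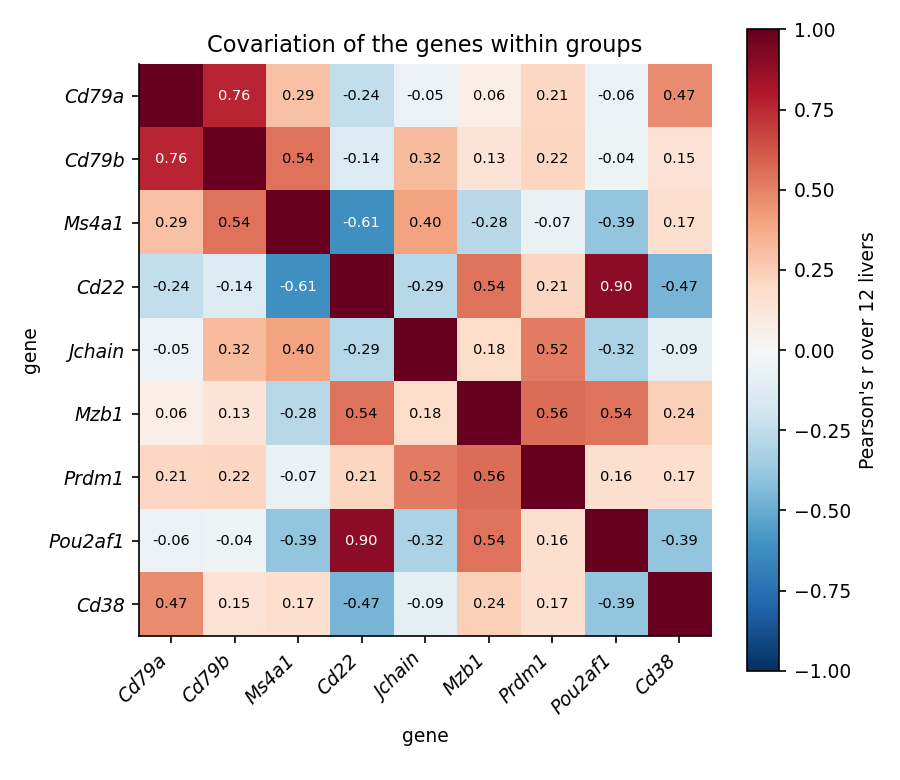
Pearson's r of log2 CPM between each pair of genes over 12 livers after group means were removed (colour scale from -1 to 1, value in each cell). Cd79a with Cd79b and Cd22 with Pou2af1 stand out, and most other cells are pale.

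The genes outside the 9 whose levels followed them most closely were sought among 12595 named genes whose log2 CPM averaged 0 or more. For the average of Cd79a, Cd79b and Ms4a1 these were Epor (r = 0.92, rho = 0.92), Gm34235, Lsm10, 2300009A05Rik and E030030I06Rik, with r of 0.87 to 0.92 over 12 livers after removal of group means. None of these 5 passed the comparison of CCl4 with oil. For Jchain they were Dexi (r = 0.90, rho = 0.87), Kif20a, Dio1, 1700052K11Rik and Eid2b. Of these 5, Kif20a rose after CCl4 (log2 fold change 1.57, adjusted p = 4.71e-05), Dio1 fell (log2 fold change -1.20, adjusted p = 0.000681) and the other three did not pass. These r values are the highest of many and describe likeness only.

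Of 15 other surface genes of B cells 10 rose, 0 fell and 5 did not pass, where 20.6% of all tested genes rose. The median log2 fold change of the 15 was 0.98. The 5 were read out after their values were seen. Fcmr had a log2 fold change of 0.72 (adjusted p = 0.0761), Fcer2a 0.50 (adjusted p = 0.134) and Bank1 0.39 (adjusted p = 0.0837). Cxcr5 was at 0.05 (adjusted p = 0.911) and Vpreb3 at -0.26 (adjusted p = 0.612). Cr2, complement receptor 2, rose 2.58-fold from 0.315 ± 0.0625 to 0.816 ± 0.164 CPM (adjusted p = 0.000204). Cd72, an inhibitory receptor also found on myeloid cells, rose 3.36-fold, and Cd180, a relative of the toll-like receptors, 3.13-fold. Ly6d went from 1.81 ± 1.55 to 165 ± 79.5 CPM, by far the largest change of the list; epithelial cells express Ly6d as well. Chosen after their values were seen, Fcrl1 rose 2.59-fold and Tnfrsf13c, the receptor for the survival factor BAFF, 2.21-fold. The Tnfrsf13c groups overlapped.

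Signalling genes downstream of the antigen receptor rose in 10 of 15 cases and fell in 0, where 20.6% of all tested genes rose. Their median log2 fold change was 0.90. Blnk, the adaptor that links the receptor to its kinases, rose 4.60-fold from 0.937 ± 0.430 to 4.36 ± 0.751 CPM. The kinase gene Btk rose 2.93-fold and the adaptor gene Dapp1 2.14-fold. Macrophages express Btk and Blnk too, and their markers rose as given above, so the share of each cell type cannot be told apart here.

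Of 12 listed transcription factors of B cells 4 rose and 1 fell, with a median of 0.27; of all tested genes 20.6% rose and 18.4% fell. The 4 that rose were Bcl11a (3.10-fold), Spi1 (2.42-fold), Irf8 (1.92-fold) and Ikzf1 (1.58-fold), of which Spi1 and Irf8 are also factors of macrophages and dendritic cells. Bach2, which holds B cells back from plasma cell fate and was also chosen after its values were seen, fell 2.16-fold (adjusted p = 0.0107). The groups overlapped, with 4.08 to 14.6 CPM in oil and 2.12 to 5.66 CPM in CCl4. These levels were above those of Cd79a, and which cells supplied Bach2 was not tested. Pax5 and Ebf1, the factors that set B cell identity, were likewise read out after their values were seen. Pax5 was at 0.387 ± 0.158 CPM in oil and 0.361 ± 0.260 CPM in CCl4, and did not pass (log2 fold change -0.09 ± 0.43 SE, adjusted p = 0.878; 0.026 with upper-quartile scaling). Ebf1 was at 0.235 ± 0.118 and 0.279 ± 0.174 CPM and did not pass either (log2 fold change 0.24 ± 0.46 SE, adjusted p = 0.699).

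Of 17 listed plasma cell genes 16 were tested, and 5 rose and 1 fell (median 0.34), where 20.6% of all tested genes rose and 18.4% fell. Tnfrsf13b, the TACI receptor, rose 5.76-fold from 0.216 ± 0.0975 to 1.27 ± 0.294 CPM. Slamf7 rose 4.65-fold, Fkbp11, a folding enzyme of secretory cells, 4.95-fold, and Derl3, a factor of protein disposal from the endoplasmic reticulum, 3.60-fold. The Derl3 groups overlapped, with 3.47 to 21.1 CPM in oil and 16.3 to 35.4 CPM in CCl4. Fkbp11 went from 16.3 ± 6.33 to 81.0 ± 47.6 CPM, above the levels of Jchain and Mzb1. Which cells supplied these transcripts was not tested. The remaining 2 genes were chosen after their values were seen: Sec11c, a signal peptidase subunit, rose 1.99-fold, and Ell2 fell 1.36-fold (adjusted p = 0.0445), a call that ended with upper-quartile scaling (adjusted p = 0.129) and when any of 9 livers was left out, namely CCl4 replicates 1, 2, 4 and 5 and oil replicates 1, 3, 4, 5 and 6 (adjusted p between 0.0608 and 0.0964). Tnfrsf17, the BCMA receptor of mature plasma cells, had 0 counts in the 6 oil libraries and 13 in the 6 CCl4 libraries, below the filter. Xbp1, the main secretory factor, and Irf4, another factor of plasma cells, were also chosen after their values were seen. Xbp1 was at 317 ± 127 CPM in oil and 314 ± 53.5 CPM in CCl4 and did not pass (adjusted p = 0.963). Hepatocytes express Xbp1 strongly. Irf4 did not pass either (log2 fold change 0.32, adjusted p = 0.509). None of 14 listed immunoglobulin genes was matched to an ID, and they are not analysed here.

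**Figure D4:**
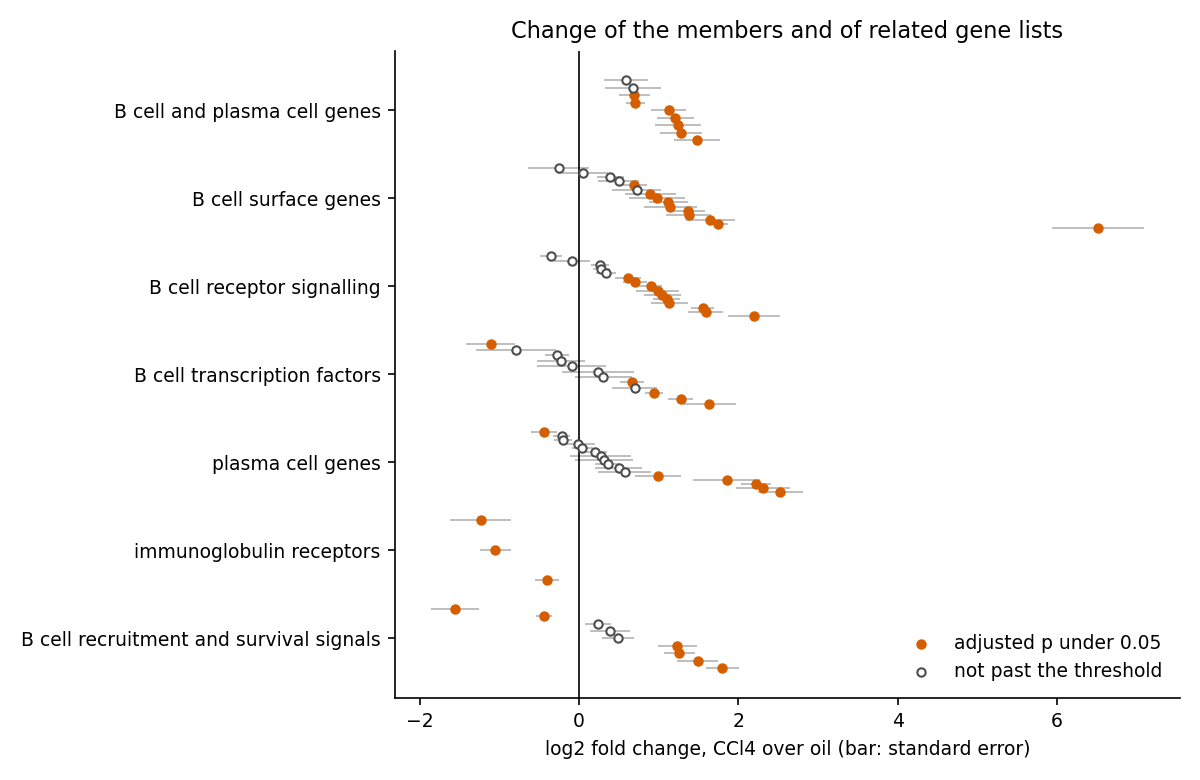
Log2 fold change of CCl4 over oil (horizontal axis) for each tested gene of 7 lists, with bars for the standard error; filled points passed an adjusted p of 0.05 and open points did not. The 9 members and the B cell surface genes lie mostly right of 0, and the 3 immunoglobulin receptors lie left of it.

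Receptors that carry antibodies fell in all 3 cases, where 18.4% of all tested genes fell. Pigr, the polymeric immunoglobulin receptor that takes J chain-linked IgA across epithelium and hepatocytes, fell 2.07-fold from 1151 ± 170 to 555 ± 166 CPM, without overlap (adjusted p = 0.000681). Fcamr, a receptor for IgA and IgM, was at 0.356 ± 0.132 CPM in oil and 0.149 ± 0.0834 CPM in CCl4 (adjusted p = 0.0216), a call that ended when oil replicate 2 was left out (adjusted p = 0.0504). Fcgrt, the neonatal Fc receptor, fell 1.32-fold (adjusted p = 0.0431), a call that ended with upper-quartile scaling (adjusted p = 0.126). It also ended when any of 8 livers was left out, namely CCl4 replicates 1, 2, 3 and 5 and oil replicates 2, 3, 4 and 5, with adjusted p between 0.0534 and 0.0880.

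Signals that attract and keep B cells went in both directions. Of 14 listed genes 9 were tested, and 4 rose and 2 fell, where 20.6% of all tested genes rose and 18.4% fell. The survival factor genes Tnfsf13 (APRIL) and Tnfsf13b (BAFF) rose 2.39-fold and 2.35-fold, the latter named after its values were seen. The lymphoid cytokine Ltb rose 2.80-fold, and the adhesion molecule Vcam1 rose 3.48-fold from 8.62 ± 2.48 to 30.0 ± 7.27 CPM. Cxcl13, the chemokine that draws B cells into follicles, fell 2.95-fold from 2.41 ± 0.916 to 0.814 ± 0.317 CPM (adjusted p = 0.000978), and Cxcl12, named after its values were seen, fell 1.36-fold. Of 8 germinal centre genes 4 were tested and 2 of them rose, Cd40 (2.65-fold) and S1pr2 (1.299-fold). The S1pr2 call ended when CCl4 replicate 3 was left out (adjusted p = 0.0602), and likewise for oil replicate 1 (adjusted p = 0.0516).

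Of 12 genes of NAD metabolism, the pathway that CD38 draws on, 0 rose and 3 fell: Sirt3 (1.73-fold), Sirt1 (1.56-fold) and Naprt (1.43-fold). Of all tested genes 18.4% fell, so the count of this list is near the background.

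Markers of other cell types were read beside these results. Plasmacytoid dendritic cells can carry plasma cell transcripts. Of their 4 tested markers 3 rose, Siglech, Bst2 and Cox6a2, where 20.6% of all tested genes rose. Ccr9 did not pass (adjusted p = 0.408). Cox6a2 was spread widely in CCl4, from 0.423 to 5.35 CPM, against 0 to 0.0702 CPM in oil. Muscle markers also differed widely between CCl4 livers, with sums of 0.0148 to 182 CPM. Whether muscle RNA added to the Cox6a2 level was not tested. The whole list of 6 summed to 146 to 185 CPM in oil and 224 to 380 CPM in CCl4. Bst2, an interferon-induced gene, made up most of these sums. Siglech, a defining marker of these cells, rose from 0.150 ± 0.0482 to 0.840 ± 0.178 CPM (adjusted p = 7.41e-06). T cell markers rose in 2 of 8 cases, Cd8a (2.06-fold) and Cd8b1 (2.68-fold), and fell in 1, Cd4 (3.77-fold), near the 20.6% risen and 18.4% fallen of all tested genes. They summed to 3.15 to 5.89 CPM in oil and 2.86 to 5.35 CPM in CCl4. No listed marker of either type was at 0 in all libraries. Their part in the members' changes was not tested.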

How the data were processed

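Whole-liver RNA of 12 mice (6 CCl4, 6 oil) was purified on columns and made into stranded total RNA libraries, per the labels' protocols. The authors deposited read counts per gene ID without normalisation, in a table of the series that equalled the 12 files of the samples. The genome build was GRCm38, per the submitters' processing notes; the aligner, counter, annotation and use of strand were not given in the sources used here. Groups came from the labelled treatment. Nothing says how animals were housed or batched, so p-values measure the spread between these samples.

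Of the 36528 IDs, 31127 were named from RefSeq GRCm38.p6 or GENCODE M21; IDs without a name held 2.19% of counts. Low counts were removed with filterByExpr, and the rest, after TMM scaling, went into edgeR 4.0.16 in R 4.3.3 (quasi-likelihood test, robust, Benjamini-Hochberg over 16032 genes). The standard error was the log2 fold change divided by the square root of F. Log2 CPM used a prior count of 2. Ratios were tested by exact permutation and pair correlations by 100000 permutations within groups; Python used scipy 1.17.1. Alternatives were DESeq2 1.42.0, limma-voom (limma 3.58.1), other scalings and filters, a covariate for each library's slope on exon length (86.6% of tested genes had one), and leaving out each library. The scripts were tested on simulated data. Promoter motifs other than the octamer were chosen after the data were examined.

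The 9 genes and all lists were chosen with earlier results of these data known. Besides the 9, the named genes were up to 4 tested genes per list with the smallest p, some of which are not reported, and the 5 genes most alike; all other genes named, those below the filter included, were chosen after their values were seen. The remaining lists were read as counts and not described further, apart from the sums given above for some of them. Kupffer cell markers rose in 3 of 5, stellate cell markers in 4 of 4 and NK cell markers in 0 of 5 (1 fell). Sinusoidal endothelial markers rose in 1 of 4, neutrophil markers in 1 of 3 and erythroid markers in 1 of 4 (1 fell). Hepatocyte markers rose in 0 of 3 and pancreas markers in 0 of 1. Muscle markers were below the filter. Of all tested genes 20.6% rose and 18.4% fell.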

Additional observations from a re-analysis of the deposited data

Results flagged for a closer look

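In 96 groups of 6 livers (the 9 genes, the list genes with the smallest p and the ratios to Cd79a) 5 had a highest or lowest liver far from the rest by Dixon's test; chance gives about 5% of groups. Cd79a in CCl4 replicate 6 was at 1.74 CPM, against 1.29 to 1.45 CPM in the other CCl4 livers. Pou2af1 in oil replicate 5 was at 0.104 CPM against 0.556 to 0.778 CPM in the other oil livers, and its log2 ratio to Cd79a there was -2.69 against -0.93 to 0.05. Fkbp11 was high in oil replicate 5, at 28.8 CPM against 11.4 to 16.6 CPM, and in CCl4 replicate 6, at 174 CPM against 44.6 to 83.8 CPM.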

How the results depend on the processing

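The 7 risen members passed under every alternative that tested them. With the filter of 50 counts in 6 libraries 5 genes were tested and 5 passed. With limma-voom 8 passed (Ms4a1 added), as did 8 with the length slope in the fit (Pou2af1 added). No member changed direction, and the highest adjusted p of a risen member was 0.0410, for Cd79a with the length slope. Upper-quartile scaling shifted the median of all genes to 0.13 and the division of calls from 3305 risen and 2951 fallen to 4164 and 2022. Without one library, 0 to 1 member pairs passed; the 1 was Cd22 with Pou2af1 without CCl4 replicate 3 (adjusted p = 0.0360), and Cd79a with Cd79b without oil replicate 1 (adjusted p = 0.00324) and also without oil replicate 6 (adjusted p = 0.0364). Values near 0 changed sign: the Pou2af1 ratio to Cd79a (-0.31 to 0.29 without one library), the Cd38 ratio (-0.063 to 0.090, and -0.014 with a prior count of 0.5), Pax5 (-0.53 to 0.088, and 0.026 with upper-quartile scaling), Xbp1 (-0.12 to 0.22, and 0.11 with upper-quartile scaling), Ebf1 (-0.13 to 0.42) and Irf4 (-0.078 to 0.51); the cause was not tested. No paired analysis was possible because every animal has its own number in the labels. The NK cell call, Prf1, ended with upper-quartile scaling (adjusted p = 0.0592) and when any of 7 livers was left out (0.0530 to 0.0958). The erythroid rise, Hba-a1, ended when any of 7 livers was left out (0.0505 to 0.0775), and that of the stellate marker Lrat without oil replicate 1 (0.0564). Depth limits the precision: Ms4a1, Mzb1, Prdm1 and Pou2af1 had 4 to 39 counts per oil library.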

Other observations

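Several genes of the lists stayed below the filter on low counts and are given as summed counts of 6 libraries. Klk1, listed among the plasmacytoid dendritic cell markers, had 60 counts in oil and 655 in CCl4, with 360 in a single library. Lta, a lymphoid cytokine gene, had 8 and 33 counts, and Madcam1, an adhesion molecule of mucosal vessels, 2 and 25. Il6 had 38 and 9 counts. Rgs13, a germinal centre gene, had 0 and 7 counts. The chemokine genes Ccl19 and Ccl21a were at 0 in every library.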
